A study of Homo sapiens with 2 samples.

Results

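The genes described here are 35 genes of the unfolded protein response and the integrated stress response, a list of sensors, transcription factors, chaperones, degradation factors and metabolic effectors. The rule matches them by gene symbol and uses no measured value, though the list was drawn up with earlier results of these data known. All 35 symbols were matched among the 57820 genes of the count table. The data are gene-level read counts of total RNA from T47D, a human luminal breast cancer cell line that depends on estrogen receptor alpha. The receptor gene ESR1 bore the Y537S exchange, which leaves the receptor active without hormone, and the cells were transfected with 25 nM of a control siRNA in hormone-deprived medium. This gave 1 group of 2 replicate libraries, so no conditions were compared and every level below describes this one state. The labels do not say how the exchange was introduced, whether the line is 1 clone, or whether each replicate came from its own culture. Spread between the libraries may therefore be technical.

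Proteins bound for secretion fold in the endoplasmic reticulum. When unfolded protein builds up there, the membrane sensors IRE1 (gene ERN1), ATF6 and PERK (gene EIF2AK3) are switched on. IRE1 splices the mRNA of XBP1, ATF6 is cut to free a transcription factor, and PERK phosphorylates the initiation factor eIF2alpha, which slows translation while favouring that of ATF4. Other eIF2alpha kinases answer amino acid shortage, heme shortage and double-stranded RNA, and the shared output is called the integrated stress response. In luminal breast cells XBP1 is also a known estrogen receptor target. Gene-level counts carry neither the splicing of XBP1 nor the cleavage of ATF6 nor any phosphorylation, so the levels below are amounts of RNA and not activities of the pathway.

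A sequence shared by promoters of this family is shown first. The endoplasmic reticulum stress response element, ERSE, is a CCAAT box and the letters CCACG with 9 bases between them, a known site of the factors NF-Y and ATF6. It was searched on both strands in the 250 bases before each annotated start of the RefSeq promoter table (GRCh38.p14), in which 34 of the 35 genes were matched with 47 starts; PDIA3 was not. The exact element stood before 7 of the 34 genes, namely XBP1, HSPA5, HSP90B1, CALR, CANX, PDIA6 and CRELD2. Among all 35116 windows of the table, 26 held it (0.0740%), which are windows of 25 genes, so 18 genes outside the list held it too. As the list holds known genes of this response, a higher share among them is not an independent result. The 8 sites follow as read from the strand that carries the motif, in capitals the CCAAT box and the CCACG end, with 4 bases of flank on either side.
XBP1: ctggCCAATcgcggagggCCACGaccg
HSPA5: ttcaCCAATcggcggcctCCACGacgg
HSP90B1, distal: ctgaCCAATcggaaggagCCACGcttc
HSP90B1, proximal: cccaCCAATcgcgccgcaCCACGcacc
CALR: ccgaCCAATgatggtcgaCCACGcgtg
CANX: ccggCCAATcttcacactCCACGaaga
PDIA6: cggaCCAATgagccgcagCCACGgctt
CRELD2: tggcCCAATccgagttcgCCACGagag

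In XBP1 the element ran from 52 to 34 bases before the start (chr22:28800603-28800621, gene on the minus strand), and in HSPA5 from 66 to 48 bases before it (chr9:125241391-125241409, minus strand). HSP90B1 held it 194 to 176 and 89 to 71 bases before the start, the proximal copy in the reverse orientation. The element of CALR, also reversed, lay farthest out, 225 to 207 bases before the start. The whole windows of HSPA5 and HSP90B1 are shown because these genes encode the main chaperones of the compartment and are among the 4 highest of the list. Capitals mark the exact elements, and the proximal one of HSP90B1 reads as the reverse complement.
HSPA5 (chr9:125241344-125241593, minus strand): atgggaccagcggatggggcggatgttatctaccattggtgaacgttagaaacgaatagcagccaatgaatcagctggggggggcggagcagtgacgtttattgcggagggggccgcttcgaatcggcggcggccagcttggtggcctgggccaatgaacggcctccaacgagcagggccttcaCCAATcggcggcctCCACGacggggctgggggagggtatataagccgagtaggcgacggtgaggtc
HSP90B1 (chr12:103930160-103930409, plus strand): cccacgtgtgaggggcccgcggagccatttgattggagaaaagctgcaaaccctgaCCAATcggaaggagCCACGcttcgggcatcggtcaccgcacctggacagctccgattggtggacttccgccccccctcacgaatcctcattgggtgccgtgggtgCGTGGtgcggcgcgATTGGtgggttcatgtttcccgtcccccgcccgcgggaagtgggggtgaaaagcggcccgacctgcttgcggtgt

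Either part of the element alone was common. CCAAT stood in 70.2% of the members' windows, against 32.0% of all windows, and CCACG in 57.4%, against 33.5%. The members' windows were also richer in G and C, with a median of 67.2% against 58.0% over all windows. The part of base composition in these shares was not tested. With 1 mismatch allowed among the 10 fixed bases, a search added after the first had been seen, the element stood before 12 genes, now also SDF2L1, HERPUD1, DNAJC3, SEL1L and DDIT3, and in 1.36% of all windows.

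Short motifs of the other branches stood before fewer of these genes than the exact ERSE. The UPRE letters TGACGTGG, linked to spliced XBP1, stood before HYOU1 alone, as cccgTGACGTGGtcca, and in 0.612% of all windows. TTGCATCA, the core of the C/EBP-ATF element through which ATF4 acts with C/EBP partners, stood before CHAC1 (gccgTTGCATCActcc) and HERPUD1 (cgggTTGCATCAgccc), against 0.772% of all windows. The cyclic AMP response element TGACGTCA stood before PPP1R15A alone (ttcgTGACGTCAgcac) and in 1.65% of windows. The estrogen response element, GGTCA and TGACC with 3 bases between them, stood before no member and in 0.0399% of all windows. At so low a share, its absence from the members' windows says nothing about receptor sites of these genes. Counted by windows, the UPRE letters stood in 2.13% of the members' windows, the C/EBP-ATF core in 4.26% and the cyclic AMP response element in 2.13%. Each share rests on 1 or 2 windows. A match is only a string of letters in this window, and no binding was measured.

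**Figure D1:**
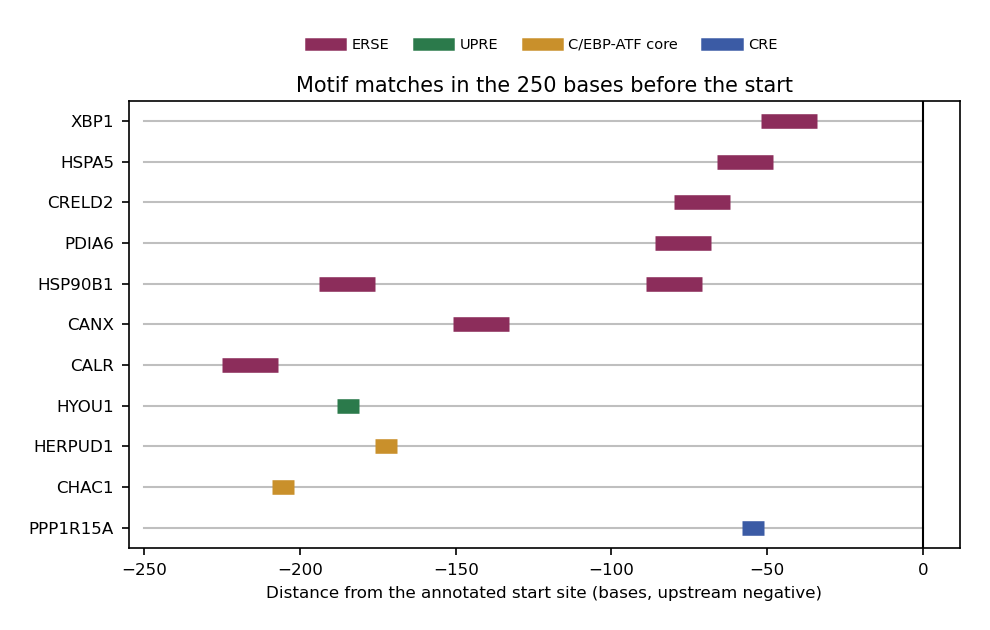
Positions of exact motif matches in the 250 bases before the annotated start of 11 member genes; the horizontal axis is the distance from the start in bases, and each bar spans a match. The ERSE of XBP1 lies nearest to the start, at 52 to 34 bases, and that of CALR farthest, at 225 to 207 bases.

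The libraries held 41370662 reads on genes in replicate 1 and 37198274 in replicate 2. Levels are TPM, reads scaled to exon length and library size, so genes can be set side by side; CPM is scaled to library size alone, and intervals are 95% Poisson intervals that cover counting error only. At 1 CPM or more in both libraries 60.9% of protein-coding genes were detected. The TPM of these detected genes summed to 310450 in replicate 1 and 276983 in replicate 2. Pairs of TPM values and their SD therefore include this shift of scale between the libraries. All 8 luminal epithelial markers were detected, with a summed level of 2449 and 2295 TPM in replicates 1 and 2. The 4 immune markers were not, with sums of 0.0800 and 0.395 TPM, nor were the 2 matched endothelial markers. Exons of other genes cover 85.8% of CD68, so its lack of reads is not read as low expression. In replicates 1 and 2 CD14 had 4 and 16 reads, PTPRC 0 and 17, and VWF 0 and 12. Of 4 basal markers ACTA2 passed, and of 5 mesenchymal markers COL1A1 passed. XBP1 is also a plasma cell factor; of 4 plasma cell markers SDC1 and MZB1 were detected, with 39.8 and 35.3 TPM and 7.92 and 6.40 TPM, while TNFRSF17 and JCHAIN had no reads.

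Of the 35 genes, 34 were detected, the exception being GDF15 with 0.943 CPM in replicate 1 and 1.64 in replicate 2. Their median level was 34.8 ± 3.87 TPM (SD, n = 2), beside 9.27 ± 0.905 TPM over all 11731 detected protein-coding genes. Together they took 0.741% and 0.737% of the reads. Levels of 6 genes (17.1%) reached 100 TPM or more, beside 3.95% of detected protein-coding genes, and 8 (22.9%) lay below 10 TPM, beside 52.2%. The order ran from XBP1, above 99.8% of all protein-coding genes, to GDF15, above 42.8%. The 6 genes at 100 TPM or more were XBP1, CALR, HSP90B1, HSPA5, CANX and ATF4. The 8 below 10 TPM were EIF2AK3, CRELD2, PPP1R15A, ATF3, CHAC1, DDIT4, ERN1 and GDF15.

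**Figure D2:**
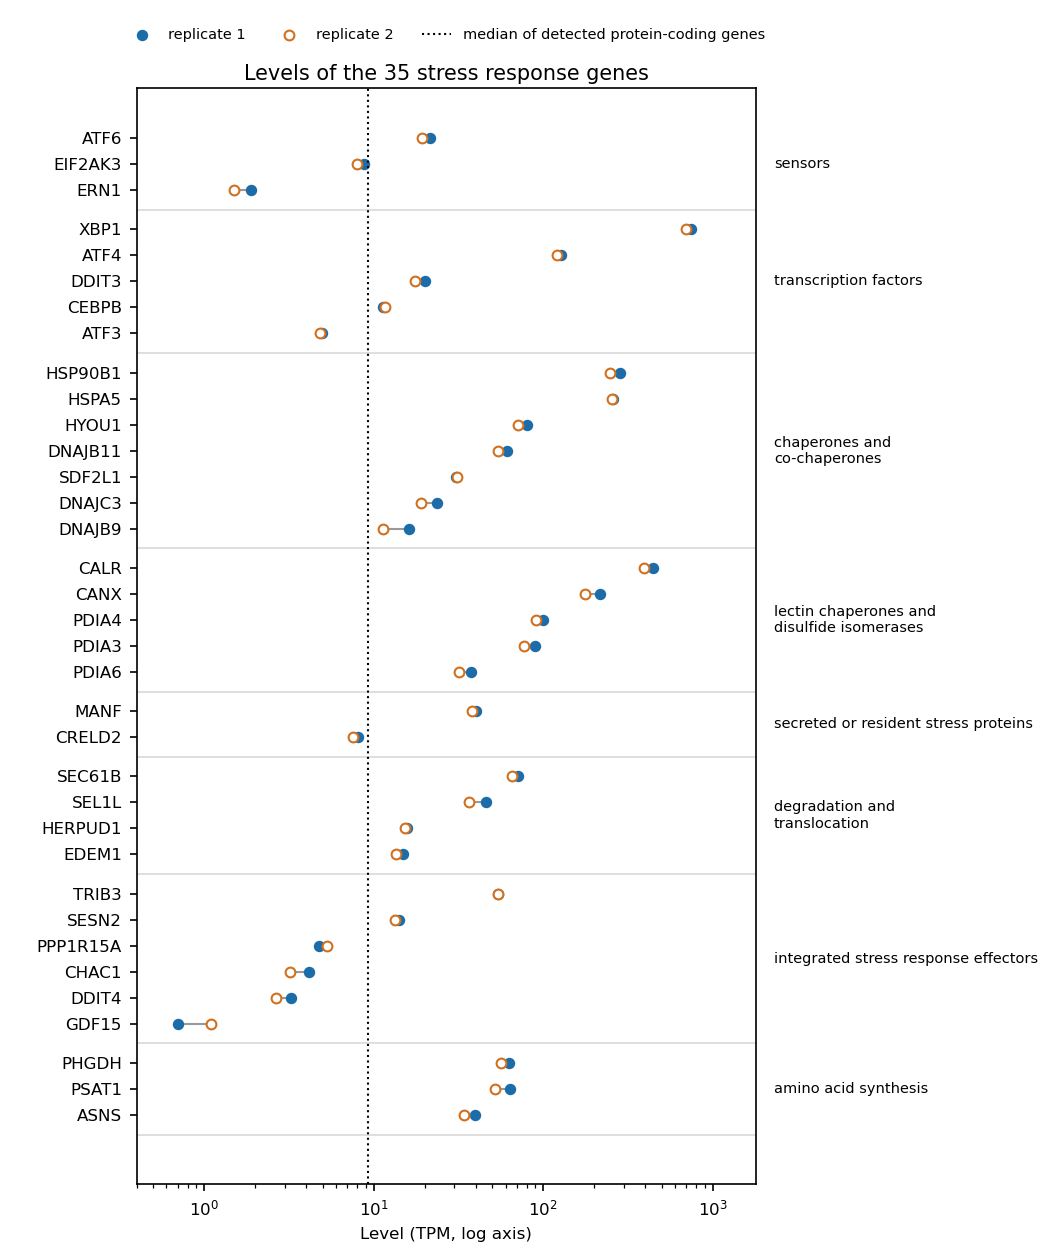
Levels of the 35 genes in TPM on a log axis, by role, with replicate 1 as filled and replicate 2 as open circles and the median of detected protein-coding genes (9.27 TPM) as a dotted line. XBP1, CALR, HSP90B1, HSPA5, CANX and ATF4 lie at or above 100 TPM, and GDF15 is lowest in both libraries.

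The 3 sensors were unequal. ATF6 (ENSG00000118217.5, hg19 chromosome 1, 161736084 to 161933860) had 21.5 TPM in replicate 1 (20.9 to 22.1) and 19.4 in replicate 2 (18.8 to 20.04). EIF2AK3 (hg19 chromosome 2, 88856259 to 88927094) had 8.83 and 8.002 TPM, and ERN1 (hg19 chromosome 17, 62116502 to 62208179) had 1.89 (1.74 to 2.06) and 1.51 (1.37 to 1.66) TPM. ERN1 thus lay second lowest of all 35 genes, with 545 and 435 reads. The sensors kept the order ATF6, EIF2AK3, ERN1 in both libraries with no overlap between their ranges. ATF6 was 12.1-fold above ERN1 (log2 ratio 3.59 ± 0.13, SD, n = 2) and 2.43-fold above EIF2AK3 (1.28 ± 0.0023), and EIF2AK3 was 4.97-fold above ERN1 (2.31 ± 0.13).

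Such a ratio was taken as larger than the replicate spread under 2 conditions. Its counting interval had to exclude equality on the same side in each library. The mean log2 ratio had also to pass the 95th percentile of differences between the replicates, taken over genes as abundant as the lower partner. Of 44 pairs of members and relatives set in this way, 38 passed, with the first gene of the pair higher in 28 of them and the second in 10. One of these is ATF6/ATF6B, which is not read as a difference because the genes around ATF6B largely lack reads too, and without it 37 of 43 passed. CEBPB/CEBPA is still counted among the 37 but is not read as a difference either, because exons of other genes cover 85.6% of CEBPA. In CPM, where exon length is not divided out, 6 of the 44 ratios turned direction.

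Relatives of the sensors showed the following. ERN2, the epithelial paralog of ERN1, stood 19.96-fold below it (log2 ratio 4.32 ± 0.68), at a level where replicate differences are wide. Among the eIF2alpha kinases, EIF2AK3 lay well below the heme-regulated EIF2AK1, which had 49.5 and 45.8 TPM (log2 ratio -2.50 ± 0.020). It also lay below the amino acid-sensing EIF2AK4, with 16.8 and 15.2 TPM (-0.93 ± 0.0027). EIF2AK2, the kinase of double-stranded RNA, had 7.29 and 6.02 TPM. EIF2AK3 exceeded it by 0.34 ± 0.095 on the log2 scale in TPM, but in CPM the ratio turned to -0.64, and in replicate 1 alone it was 0.28 and no longer passed. ATF6B, the paralog of ATF6, had no reads in either library. Of the 100 protein-coding genes within 1000000 bases of it on hg19 chromosome 6, 81 had none, beside 18.6% of all protein-coding genes, so its 0 was not read as low expression, nor the pair as a difference.

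Among the transcription factors XBP1 led by far. It had 749.7 TPM in replicate 1 (744 to 756) and 696 in replicate 2 (690.5 to 702), from 60159 and 55897 reads (ENSG00000100219.12, hg19 chromosome 22, 29190543 to 29196585). In CPM it had 1454 and 1503, so its order between the libraries turned with the scale. ATF4, the translationally controlled factor of the integrated stress response, had 128 and 121 TPM (hg19 chromosome 22, 39915700 to 39918691). DDIT3, which encodes the pro-apoptotic factor CHOP, had 20.1 and 17.6 TPM. CEBPB, whose protein pairs with ATF4 at C/EBP-ATF elements, had 11.3 and 11.7 TPM, and ATF3, an early stress-induced factor, 5.00 and 4.84. In TPM the ranges of the 5 factors did not overlap. In CPM the range of CEBPB (13.3 and 15.3) overlapped those of DDIT3 (15.2 and 14.8) and ATF3 (12.8 and 13.8). XBP1 was 5.82-fold above ATF4 in TPM (log2 ratio 2.54 ± 0.018) and 35.4-fold above ATF6 (5.14 ± 0.027).

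ATF4 exceeded DDIT3 6.605-fold (log2 ratio 2.72 ± 0.079) and ATF3 25.2-fold (4.66 ± 0.026). Its relative ATF5 had 2.73 and 3.03 TPM, 43.1-fold less than ATF4. DDIT3 was 3.82-fold above ATF3 in TPM (1.93 ± 0.10), but only 0.17 on the log2 scale in CPM, within the spread; DDIT3 has 1178 exon bases and ATF3 4003. Exons of other genes cover 30.1% of the exon bases of DDIT3, and reads that fit more than 1 gene were not counted, so DDIT3 may be underestimated. CEBPB lay below CEBPG, another ATF4 partner, which had 25.5 and 20.6 TPM (log2 ratio -0.997 ± 0.25). CEBPA had 14 and 24 reads, and exons of other genes cover 85.6% of it, so its pair with CEBPB is not read as a difference.

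The chaperones of the reticulum were abundant but spanned a wide range. HSP90B1, which encodes GRP94, had 283 and 249 TPM, and HSPA5, which encodes the master chaperone BiP, had 259 and 255 TPM. HSPA5 and HSP90B1 did not differ beyond the spread, with a ratio of 0.915 in replicate 1 and 1.02 in replicate 2 (log2 -0.046 ± 0.11), so each was the higher one in 1 library. In CPM the log2 ratio was -0.31 and passed. HYOU1, a nucleotide exchange factor of BiP, had 80.5 and 71.0 TPM, 3.40-fold less than HSPA5 (log2 ratio 1.76 ± 0.11).

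The DnaJ co-chaperones, which deliver clients to BiP, followed in a fixed order. DNAJB11 had 61.6 and 54.2 TPM, DNAJC3, also an inhibitor of eIF2alpha kinases, 23.5 and 19.04, and DNAJB9, which also holds IRE1 in check, 16.1 and 11.3. DNAJB11 was 2.73-fold above DNAJC3 (log2 ratio 1.45 ± 0.086) and 4.28-fold above DNAJB9 (2.10 ± 0.23). SDF2L1, a partner of DNAJB11, had 30.7 and 31.1 TPM and did not differ from its paralog SDF2 beyond the spread in TPM (0.15 ± 0.048). In CPM the same log2 ratio was -1.45, as SDF2L1 has 1099 exon bases.

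Lectin chaperones, which hold glycoproteins during folding, were led by CALR with 442 and 392 TPM (ENSG00000179218.9, hg19 chromosome 19, 13049392 to 13055303). Its membrane-bound relative CANX had 218 and 176 TPM, 2.13-fold less (log2 ratio 1.09 ± 0.094). In CPM the log2 ratio turned to -0.11, within the spread. CLGN, the calnexin of testis, lay 106-fold below CANX. Among the disulfide isomerases, PDIA4 had 100.0 and 91.2 TPM, PDIA3, the partner of both lectins, 89.1 and 77.5, and PDIA6 37.6 and 32.1. PDIA3 and PDIA4 did not differ beyond the spread (log2 ratio -0.20 ± 0.047), while PDIA6 was below each of them, at -1.46 ± 0.067 against PDIA4.

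Among these isomerases, reads on copies and overlaps touch 2 values. The pseudogene PDIA3P1 held 992 and 921 reads, which is 9.91% and 10.6% of those on PDIA3. Reads that fit both were left out, so these shares do not bound the error in the level of PDIA3. Exons of other genes cover 25.2% of PDIA6 and 18.9% of PDIA3.

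MANF and CRELD2 encode small proteins that stay in the reticulum or are secreted when calcium and folding are disturbed. MANF had 40.2 and 37.8 TPM, and CRELD2 8.07 and 7.56. MANF exceeded its paralog CDNF 35.8-fold (log2 ratio 5.16 ± 0.063). CRELD2 instead lay below its paralog CRELD1 (-0.85 ± 0.0053), though in CPM that difference was -0.39 and within the spread. CRELD2 was the lowest gene with an ERSE before its start.

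Degradation and translocation genes took the middle of the list. SEC61B, a subunit of the translocation channel, had 71.3 and 65.9 TPM, below the channel's main subunit SEC61A1 (log2 ratio -0.59 ± 0.022). SEL1L, the adaptor of the HRD1 ubiquitin ligase, had 45.8 and 36.7 TPM. HERPUD1, which organises that ligase, had 15.8 and 15.3, and the mannosidase-like EDEM1 14.9 and 13.6. SEL1L was 2.88-fold above EDEM1 (1.53 ± 0.14), while HERPUD1 and EDEM1 differed by less than the spread in TPM. In CPM the log2 ratio of HERPUD1 to EDEM1 turned to -0.57 and passed. EDEM1 lay below EDEM3, which had 33.6 and 26.6 TPM (-1.07 ± 0.15), and differed from EDEM2 by less than the spread in TPM (-0.19 ± 0.036) but was above it in CPM (0.81). HERPUD1 and HERPUD2 also differed by less than the spread in TPM (0.043 ± 0.054), but in CPM the ratio was 0.41 and passed.

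Of the 6 effectors of the integrated stress response, TRIB3 and SESN2 lay above the median of detected protein-coding genes and 4 below it. TRIB3, a pseudokinase that restrains AKT and ATF4, had 53.9 and 54.3 TPM (ENSG00000101255.6, hg19 chromosome 20, 361261 to 378203), close to the chaperone gene DNAJB11. SESN2, an inhibitor of mTORC1 signalling, had 14.1 and 13.5 TPM. PPP1R15A, which encodes GADD34, the inducible subunit that directs a phosphatase to eIF2alpha, had 4.76 and 5.33.

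The other effectors were lower still. CHAC1, which breaks down glutathione, had 4.16 TPM (3.63 to 4.74) and 3.20 (2.74 to 3.71), and the mTORC1 inhibitor DDIT4 3.26 and 2.68. DDIT4 may be underestimated, as exons of other genes cover 41.2% of it. GDF15, a secreted stress cytokine, had 39 reads in replicate 1 and 61 in replicate 2, or 0.705 TPM (0.501 to 0.964) and 1.102 (0.843 to 1.42). It was lowest of the 35 genes in both libraries. The median of these 6 effectors was 4.36 ± 0.14 TPM.

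Paralogs of the effectors differed in direction. TRIB3 exceeded TRIB1 16.5-fold (log2 ratio 4.05 ± 0.023), and TRIB2 had no reads, which at a floor of 3 reads per library puts the ratio of TRIB3 to it at 2183 in replicate 1 and 2201 in replicate 2, with lower 95% limits of 1775 and 1789. SESN2 was 5.53-fold above SESN1 (2.47 ± 0.12), and SESN3 had 4 and 8 reads. DDIT4L had no reads, and at the same floor the ratio of DDIT4 to it was 86.3 and 70.8, with lower 95% limits of 69.5 and 56.9. In contrast PPP1R15A lay far below PPP1R15B, the constitutive subunit of the same phosphatase, which had 60.8 and 50.1 TPM (-3.45 ± 0.31). CHAC1 lay below CHAC2 (-0.83 ± 0.096), though in CPM this was -0.20 and within the spread.

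The amino acid genes, known ATF4 targets that feed serine and asparagine synthesis, lay between 34.0 and 63.4 TPM. PHGDH, the entry enzyme of serine synthesis, had 62.8 and 56.3 TPM, and PSAT1, which follows it, 63.4 and 52.1. The order of the pair differed between the libraries, and they did not differ beyond the spread (log2 ratio -0.048 ± 0.089), whereas in CPM the ratio was -1.41 and passed. The last enzyme of the pathway, PSPH, had 48.4 and 41.4 TPM, 1.33-fold below PHGDH (0.41 ± 0.049). ASNS, which makes asparagine, had 39.8 and 34.0 TPM and lay below PSAT1 (-0.64 ± 0.040), but above it in CPM (0.38). The pseudogene ASNSP1 held 271 and 251 reads, 5.77% and 6.24% of those on ASNS.

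**Figure D3:**
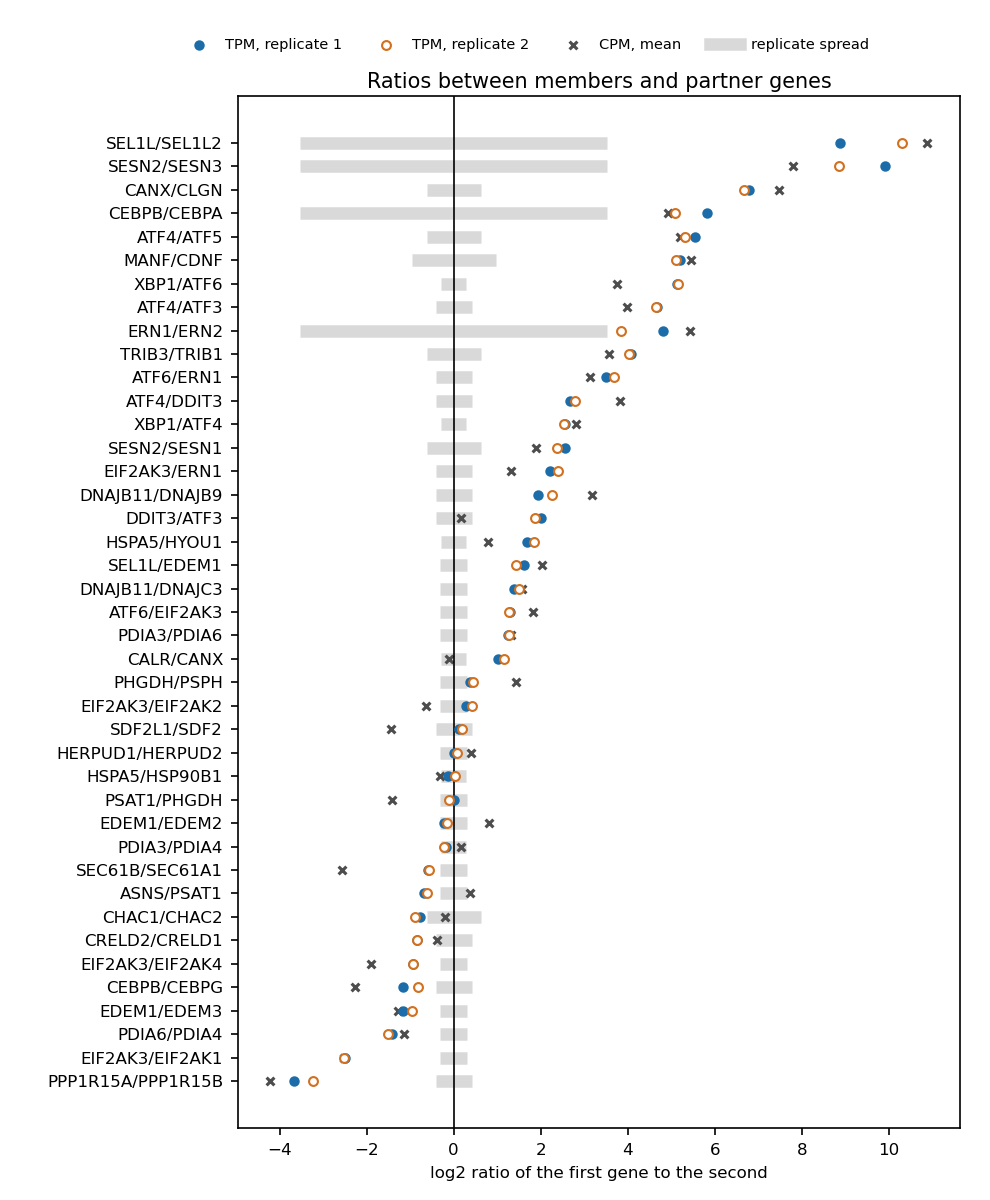
Log2 ratio of the first gene to the second in 41 of the 44 pairs, as TPM in each library (circles) and as mean CPM (crosses); the 3 pairs with a gene at 0 reads are left out, and grey bars span the replicate spread of genes as abundant as the lower partner. Ratios of XBP1, ATF4 and ATF6 to their partners lie far outside the grey bars, while HSPA5/HSP90B1, PDIA3/PDIA4, PSAT1/PHGDH, HERPUD1/HERPUD2, EDEM1/EDEM2 and SDF2L1/SDF2 lie inside in TPM.

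Placed in 1 order by mean TPM, the 35 genes form 34 neighbouring pairs, of which 10 differed by more than the replicate spread. At the top, the steps that passed were XBP1 above CALR (1.74-fold), CALR above HSP90B1 (1.57-fold), HSPA5 above CANX (1.31-fold), CANX above ATF4 (1.58-fold) and ATF4 above PDIA4 (1.30-fold). HSP90B1 and HSPA5 did not differ beyond the spread, and from PDIA4 down to TRIB3 no neighbours differed beyond the spread. Further steps lay between TRIB3 and SEL1L, SDF2L1 and DNAJC3, CEBPB and EIF2AK3, CRELD2 and PPP1R15A, and DDIT4 and ERN1. The order holds for levels per exon length. In CPM 17 of the 34 neighbouring ratios turned direction, among them 7 of the 10 that passed: CALR/HSP90B1 (log2 -0.14), HSPA5/CANX (-0.28), ATF4/PDIA4 (-0.0032), TRIB3/SEL1L (-1.30), SDF2L1/DNAJC3 (-1.80), CEBPB/EIF2AK3 (-1.11) and DDIT4/ERN1 (-1.59). The last pair, ERN1 and GDF15, did not differ beyond the spread of genes this low (log2 ratio 0.94 ± 0.69).

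Levels were then set beside the promoter element, which the matching of the genes by symbol did not use. The list holds known genes of the response that the element is named for, so list and element were not chosen independently. The 7 genes with the exact ERSE had a median of 259 TPM in replicate 1 and 249 in replicate 2, and those of the 27 genes without it were 21.5 and 19.04. Of the 7, 5 reached 100 TPM or more, and of the 27, ATF4 alone. PDIA6 and CRELD2 were the members with the element below that level, and the members without it included PDIA4, HYOU1 and SEC61B. The contrast is one of exact matches. SDF2L1, HERPUD1, DNAJC3, SEL1L and DDIT3, which held the element only with 1 mismatch, count here among the 27. Their mean levels were 30.9, 15.6, 21.3, 41.2 and 18.8 TPM, all below 100 TPM. Outside the list levels were lower. Of 15 further genes that hold the exact element and were matched in the count table, 8 were detected, and their highest level was 55.6 TPM. These values describe 1 state of the cells, and the part of the element in them was not tested.

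Other genes of the same pathways, 119 in 7 lists, gave the surroundings of these levels. In all, 113 of the 119 were detected, and their median was 29.03 ± 3.02 TPM. The 12 genes of eIF2 kinases and eIF2 machinery were all detected, with EIF2S3 (223 and 180.0 TPM), EIF2S2 (161 and 141) and EIF2S1 (63.0 and 49.3), the subunits of eIF2, on top and EIF2AK2 lowest. Of 12 other stress transcription factors and their processing enzymes 9 were detected. The protease MBTPS1, which cuts ATF6, led them with 71.6 and 63.7 TPM, followed by RTCB, the ligase that joins spliced XBP1 mRNA, with 64.4 and 55.4, and the factor CREB3L4 with 48.8 and 49.0. CREB3L1 had 2 reads in each library.

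Folding enzymes beyond the list had a lower median, 12.4 ± 1.39 TPM over 21 genes, of which 20 were detected. Their top was set by AGR2 (1089.6 and 1061 TPM) and AGR3 (206 and 195), isomerase relatives typical of secretory epithelium, followed by P4HB (129 and 117 TPM). The tissue-restricted isomerase PDIA2 had 20 and 21 reads. All 18 further degradation genes passed detection, and their median was 20.3 ± 2.62 TPM. VCP, the ATPase that pulls substrates out of the membrane, led with 141 and 122 TPM, the lectin OS9 had 65.6 TPM in each library, and DERL3 was lowest (0.875 and 0.775 TPM).

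Translocation and glycosylation genes were detected without exception, 21 of 21, with a median of 68.6 ± 6.14 TPM. Subunits of the oligosaccharyltransferase were highest, with RPN2 at 313 and 282, RPN1 at 187 and 174 and DAD1 at 168 and 155 TPM, and the signal peptidase subunit SPCS2 was lowest with 7.31 and 6.05. Of 23 further ATF4-linked genes 21 passed, and the median was 11.7 ± 0.704 TPM. NUPR1, a stress-induced chromatin protein (218 and 216 TPM), the secreted glycoprotein gene STC2 (133 and 153) and the serine hydroxymethyltransferase gene SHMT2 (136 and 129) led, and SESN3 was lowest. NUPR1 and STC2 were thus far above CHAC1, DDIT4 and GDF15, but these are the top of one list and the foot of another. Both lists spanned a wide range. SESN1 had 2.39 and 2.59 TPM in the ATF4-linked list, and TRIB3 had 53.9 and 54.3 TPM among the effectors. The 12 cytosolic tRNA synthetases all passed, at a median of 75.4 ± 9.91 TPM. AARS1 (182 and 154 TPM), GARS1 (180.2 and 149.5) and EPRS1 (173 and 139) were highest and CARS1 lowest (7.15 and 6.37).

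**Figure D4:**
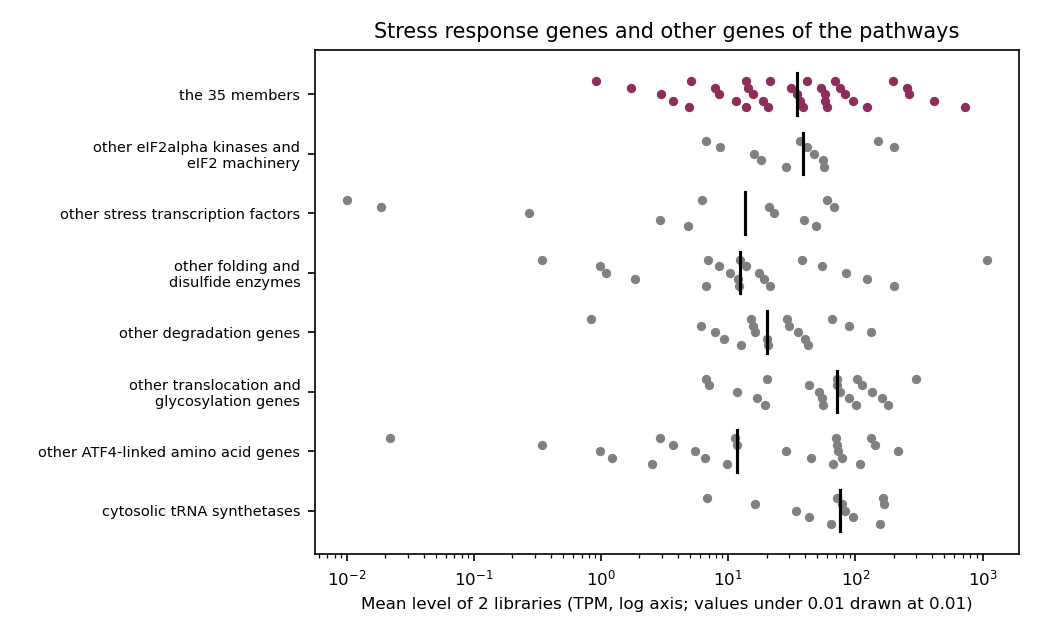
Mean level of 2 libraries in TPM on a log axis for the 35 genes and for 119 other genes of the pathways in 7 lists; black bars are medians of these mean levels, and a gene with no reads is drawn at 0.01. All eIF2 genes, translocation genes and tRNA synthetases lie above 1 TPM, while the 35 genes and the other lists reach below 1 TPM.

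The 2 libraries gave nearly the same picture of these genes. After TMM scaling, which corrects for library composition, the median absolute log2 difference was 0.093 over the 35 genes and 0.14 over 14668 genes at 1 CPM or more on average. These sets are not matched in abundance, as the median of the members was 80.1 CPM. Replicate differences were narrower in abundant genes, with a 95th percentile of 0.967 at 1 to 3 CPM and 0.306 at 30 to 100 CPM. The lower value of the members is therefore not read as closer agreement. A single member, GDF15, differed by more than 1.5-fold, with 1.76 times as much in replicate 2, beside 5.68% of all genes. Next came PPP1R15A, 1.26 times as high in replicate 2, and DNAJB9, 0.796 times as high. No member lay outside the 95th percentile of replicate differences in its CPM class. With 1 library on each side these are differences between libraries, with no p-value.

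**Figure D5:**
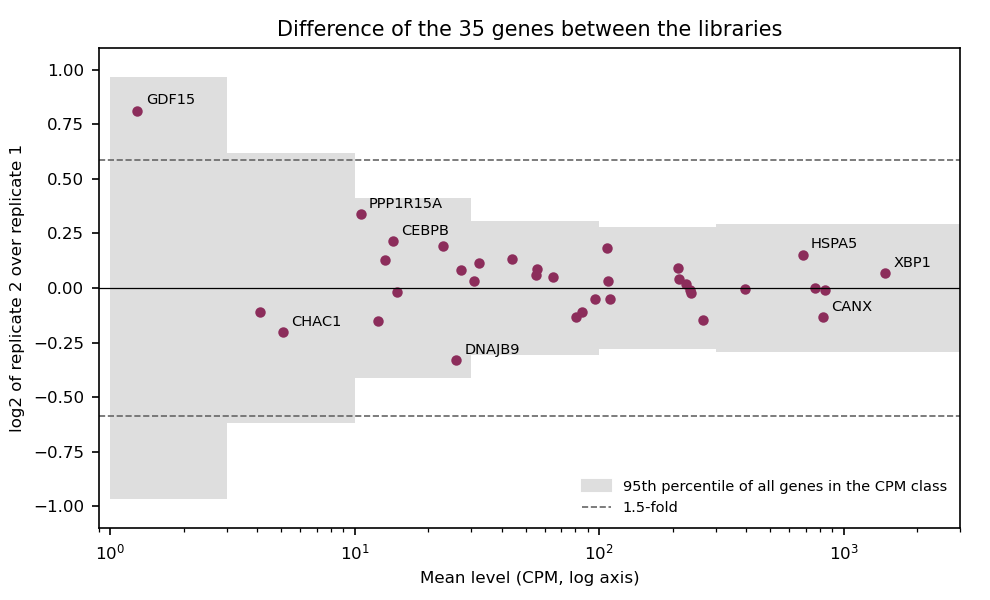
Log2 ratio of replicate 2 over replicate 1 after TMM scaling against mean CPM (log axis) for the 35 genes, with the 95th percentile of absolute differences of all genes in each CPM class in grey and 1.5-fold as dashed lines. GDF15 is the only point beyond 1.5-fold, and every point lies within the grey area.

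On the genome (hg19) chromosome 22 holds 4 of the 35 genes, XBP1, ATF4, SDF2L1 and CRELD2, which is 11.4% of the list, while it holds 2.20% of protein-coding genes. Their levels ranged from 723 ± 37.8 TPM for XBP1 to 7.82 ± 0.354 for CRELD2. Chromosome 1 also holds 4 (PHGDH, ATF6, SESN2 and ATF3), beside 10.2% of protein-coding genes.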

How the data were processed

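Per the labels' protocols, the libraries were made from total RNA with a stranded kit, of a type that removes ribosomal RNA. The deposited values are whole-number counts per gene without normalization, made with featureCounts 2.0.2 on GENCODE release 19 exons, per the file headers; the call sets no strand, paired-end, multimapping or overlap option, so reads fitting several genes were left out and antisense reads were not separated. The submitters' processing notes name HISAT2 and hg19 (GRCh37), with no HISAT2 version. Exon length, in bases, comes from the deposited table. Column names do not repeat the siRNA and were matched on cell line, receptor residue and replicate; 8 columns matching no sample described here were not used.

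CPM and TPM were computed over all 57820 genes. Symbols came from the supplied identifier table (51996 matched) and gene types from GENCODE release 29. TMM factors came from edgeR 4.0.16 and size factors from DESeq2 1.42.0. The log2 ratio between libraries used a prior count of 0.5, and replicate spread was taken in CPM classes over genes with 6 or more reads. Ratio intervals are exact conditional binomial 95% intervals. With 1 group no test between conditions was made. The libraries differed by more than sampling noise (chi-square 15.4 per gene) and were kept as 2 replicates. The ratio and motif steps were tested on simulated data. All 35 members and the genes of the pairs are named, and of each further list the 3 highest, the lowest and any gene with no reads; 1 gene that this rule names is not reported here. Members and lists were chosen with earlier results of these data known. The planned look at protein ends was not made, as no protein sequences were used here.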

Additional observations from a re-analysis of the deposited data

How the results depend on the processing

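The number of detected members was 34 to 35 when either library was left out, 35 at 0.5 CPM and 31 at 10 CPM. The median of the members was 32.1 to 37.6 TPM in single libraries, 124 when TPM was scaled over nuclear protein-coding genes alone and 80.1 in CPM, which are other scales. Of the 44 pairs 37 to 38 passed in single libraries, 39 in CPM, and 38 and 34 with the 90th and 99th percentile as bound. In CPM 6 log2 ratios turned: PDIA3/PDIA4 (0.17, within the spread in both scales), EIF2AK3/EIF2AK2 (-0.64), CALR/CANX (-0.11), SDF2L1/SDF2 (-1.45), EDEM1/EDEM2 (0.81) and ASNS/PSAT1 (0.38); CPM keeps exon length in the ratio. With a smaller fold between the libraries 3 members lay past it (GDF15, PPP1R15A and DNAJB9), with 2-fold 0, and DESeq2 size factors, total counts or no filter left 1 past 1.5-fold; that count cannot be had from 1 library. The exact ERSE stood before 5 genes in the last 100 bases, beside 0.0427% of all windows. With 1 mismatch, a search chosen after seeing the data, it stood before 12, beside 1.36% of all windows. No paired analysis was possible because there is 1 group. Depth limits GDF15 most, with 39 and 61 reads.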
